A study of Mus musculus with 10 samples.

Results

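The baseline transcriptome described here is that of unstimulated macrophages grown from the bone marrow of wild-type control mice. These are 5 of the 10 RNA-seq libraries of the series, controls 1 to 5, chosen by their labels. Each library came from a mouse labelled male and 6 to 8 weeks old. The 5 others came from hWDFY3 KI/KI mice and were not used. Marrow cells had been kept in medium conditioned by L-929 fibroblasts and were harvested on day 7, with no stimulus named in the labels. RNA was read as strand-specific poly(A)+ libraries. With a single group there is no contrast, so the results are levels, ranks and spread between mice, and no test was made.

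Conditioned medium of L-929 fibroblasts supplies M-CSF, the ligand of the receptor encoded by Csf1r, which drives marrow progenitors to become macrophages. Such cells are adherent phagocytes with a large lysosomal compartment, and they carry the receptors for microbes, cytokines and dying cells before any of these is present. The genes of an inflammatory response are held low until such a signal arrives.

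The 5 libraries held 14.6 to 36.4 M estimated counts, and a library had 11474 to 11594 genes at 1 CPM or more, where CPM is the count scaled to a library total of 1000000. At these depths a gene listed at 0 could have reached 0.0824 to 0.205 CPM, the level of 3 counts, and this limit covers counting error only. Levels of the same gene agreed between libraries in rank, with Spearman correlations of 0.981 to 0.994 across the 10985 expressed genes, which are not independent of each other. The sex in the labels went against the RNA. Xist, the RNA of the inactive X chromosome in females, stood at 307, 321, 364, 270.4 and 426 CPM in controls 1 to 5, while Ddx3y and Eif2s3y of the Y chromosome were at 0 in all 5. Kdm5d and Uty stayed below 1 CPM in every library. The libraries are therefore called by their replicate numbers and not by sex, and the origin of this mismatch was not tested.

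Markers of stromal cells and some listed markers of neutrophils were highest in controls 1 and 4. The 15 markers of stromal cells summed to 197, 17.0, 8.74, 197 and 11.7 CPM in controls 1 to 5, with controls 1 and 4 highest and none of the markers at 0 in them. In control 3, Lum and Loxl1 were at 0. Col1a1, a chain of fibrillar collagen, was at 34.2, 1.51, 0.849, 45.3 and 0.616 CPM. The 15 neutrophil markers summed to 287, 129.8, 119, 257 and 85.6 CPM, again with controls 1 and 4 highest. Most of that sum was Mmp8, which macrophages can also make, and 11 of the 15 were not expressed. The granule protein gene S100a8 was at 14.7, 4.61, 5.39, 14.3 and 3.15 CPM, and Ly6g, a surface marker of neutrophils, was at 0 in controls 2 to 5. Genes that follow the same order are named below, and the part of stromal or neutrophil RNA in them was not tested. In RNA from whole cultures, fewer cells of a type and less RNA per cell cannot be told apart.

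An expressed gene had at least 1 CPM in all 5 libraries. By this rule 10985 of 54307 genes were expressed (20.2%), and 10465 of 21782 protein-coding genes (48.0%). Another 32193 genes had no count in any library. The expressed set also held 118 long intergenic RNAs and 109 processed pseudogenes. The median expressed gene had a mean of 26.0 CPM (quartiles 9.91 and 63.1). Only 82 genes reached a mean of 1000 CPM, yet the 100 top genes took 36.9% ± 1.99 (SD, n = 5) of all counts. The top 10 alone took 15.5 to 18.7%.

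**Figure D1:**
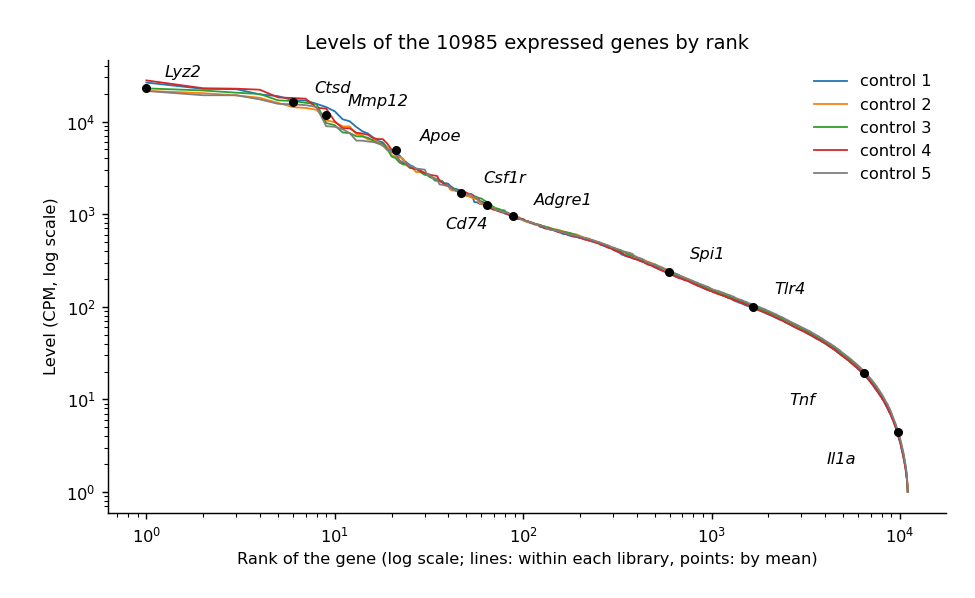
Levels of the 10985 expressed genes, in CPM on a log scale, against their rank, also on a log scale, with 1 line per control library and black points at the means of named genes. The 5 lines nearly coincide, with Lyz2 at the top at a mean of 23048 CPM and the inflammatory gene Tnf far down at 19.3 CPM.

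The 10 genes with the largest counts included genes of lysosomes, iron storage and the mitochondrial genome. Of the 25 largest, 7 were mitochondrial transcripts, led by mt-Co1, a subunit of cytochrome oxidase, at 18779.6, 18033, 15924, 17630 and 15341 CPM. Lyz2, the lysozyme of phagocytes, had the largest count of any gene, at 26335, 21438, 20464, 27794 and 19209 CPM in controls 1 to 5, and was highest in controls 4 and 1. It alone was 1.92 to 2.78% of a library. Fth1, the ferritin heavy chain that stores iron, followed at 22509, 20247, 22782, 22605 and 21358 CPM, with all 5 libraries within 1.13-fold of each other. Gpnmb, a membrane glycoprotein of lysosomes, gave 22320.2, 19142, 21634, 22854 and 19198 CPM. Psap, the precursor of the saposins that help break down sphingolipids, gave 19622, 15892, 19799, 22036 and 17321 CPM. Among the 10 genes with the largest counts, Mmp12, the macrophage elastase, varied most, at 16859, 10277, 9628, 13771 and 8773 CPM. Its 2 highest libraries were controls 1 and 4.

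Counts grow with transcript length, so genes were ranked against each other by CPM per kilobase of exon. On that scale the median expressed gene stood at 5.64 and the top 10% began at 36.4 CPM per kb. Lyz2 kept rank 1 with 17514 CPM per kb, and the ferritin light chain Ftl1 came next with 11757. The 5 ranks after it belonged to transcripts of the mitochondrial genome, led by mt-Co1 at 11095 CPM per kb. The protease Ctsd (6947), Psap (6900.1), Fth1 (6313) and the protease Ctss (6027) then followed in CPM per kb. Spp1, the secreted phosphoprotein osteopontin, was at rank 12 with 4170.3 CPM per kb. Of the 25 genes highest in CPM, 20 were also among the 25 highest in CPM per kb. Mitochondrial transcripts made up 5.34 to 6.02% of the counts and ribosomal protein messages 2.46 to 2.83%.

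Several of these levels are shared with near-identical copies, between which short reads cannot always be assigned. The nuclear copy Gm28661 matches mt-Co2 at 100% over 681.0 bases and was listed at 15.8, 114, 37.4, 32.5 and 1101 CPM. Gm10925 matches mt-Atp6 at 100% over 678.0 bases and was listed at 402, 1629, 0, 0 and 110.0 CPM, so that 1 library holds most of either value. Ftl1-ps1, 99.6% identical to Ftl1, had 286 ± 72.0 CPM (SD, n = 5). Lyz1, 95.8% identical to Lyz2, had 22.3 ± 7.39 CPM. Levels of these genes are uncertain to the extent that reads were split between copies.

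Macrophage identity genes stood near the top of the transcriptome. All 12 were expressed, and 11 were in the top 10% by CPM per kb. The 4 markers that define the cells were all high. Beside Lyz2, Csf1r was at 1290.0, 1778, 1883, 1651 and 1789 CPM, lowest in control 1. Adgre1, which encodes the F4/80 antigen, was at 829, 1046, 952, 877 and 1097 CPM. Cd68, a glycoprotein of the endosome and lysosome, was at 1187, 1296, 1571, 1307 and 1431 CPM. By column total controls 1 and 4 were the 2 lowest for Adgre1 and Csf1r, but not for Cd68. They were the 2 lowest in 8 of the 12 genes, beside 28.1% of all expressed genes. With library sizes scaled by TMM (the trimmed mean of log ratios between libraries) this fell to 4 of the 12, beside 15.2%. Mpeg1, the pore-forming perforin-2, reached 5054 ± 434 CPM (SD, n = 5), and the signalling adaptors Tyrobp and Fcer1g reached 1043 ± 100.4 CPM and 831 ± 94.2 CPM. The efferocytosis receptor Mertk was the one member outside the top 10%, at percentile 82.6.

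All 22 lineage and lipid-sensing transcription factors were expressed, and 5 reached the top 10%. Spi1, the gene of PU.1, the master regulator of myeloid cells, was at 206, 231, 289, 239 and 236 CPM. Its 89.2 CPM per kb was the highest of the list. Irf5 at 71.6, Klf6 at 69.4 and Cebpa at 60.1 CPM per kb were also in the top 10%. Irf8, which sets monocyte fate, was steady at 176, 186, 209, 198 and 197 CPM. Pparg, a nuclear receptor for fatty acids, was at 56.2, 71.0, 59.6, 38.1 and 68.7 CPM and was lowest in control 4, with a coefficient of variation (CV, the SD over the mean) of 22.3%, the largest on this list. Of the MiT/TFE factors that drive lysosomal genes, Mitf stood at 22.8, Tfe3 at 14.9, Tfeb at 9.05 and Tfec at 3.03 CPM per kb.

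Genes that mark macrophages settled in tissues were split. Of 18, 7 were expressed, beside 48.0% of all protein-coding genes, and 6 were below 1 CPM in every library. Gata6 of peritoneal macrophages was at 0, 0, 0, 0.110 and 0 CPM, and Sall1 of microglia, Clec4f of Kupffer cells and Car4 of alveolar macrophages were at 0 in all 5 libraries. Cd5l, a secreted scavenger protein, and Folr2, a folate receptor, were high with 461, 286, 271, 308 and 377 CPM and 218, 279, 151, 193 and 222 CPM. Both stood in the top 10% by CPM per kb. Ccr2, the monocyte receptor for Ccl2, was low at 12.4, 41.1, 33.0, 19.6 and 38.4 CPM, and Cx3cr1, the receptor for fractalkine, was lower still at 4.02, 14.5, 8.92, 6.34 and 8.81 CPM. For both of these receptors controls 1 and 4 were the 2 lowest libraries.

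**Figure D2:**
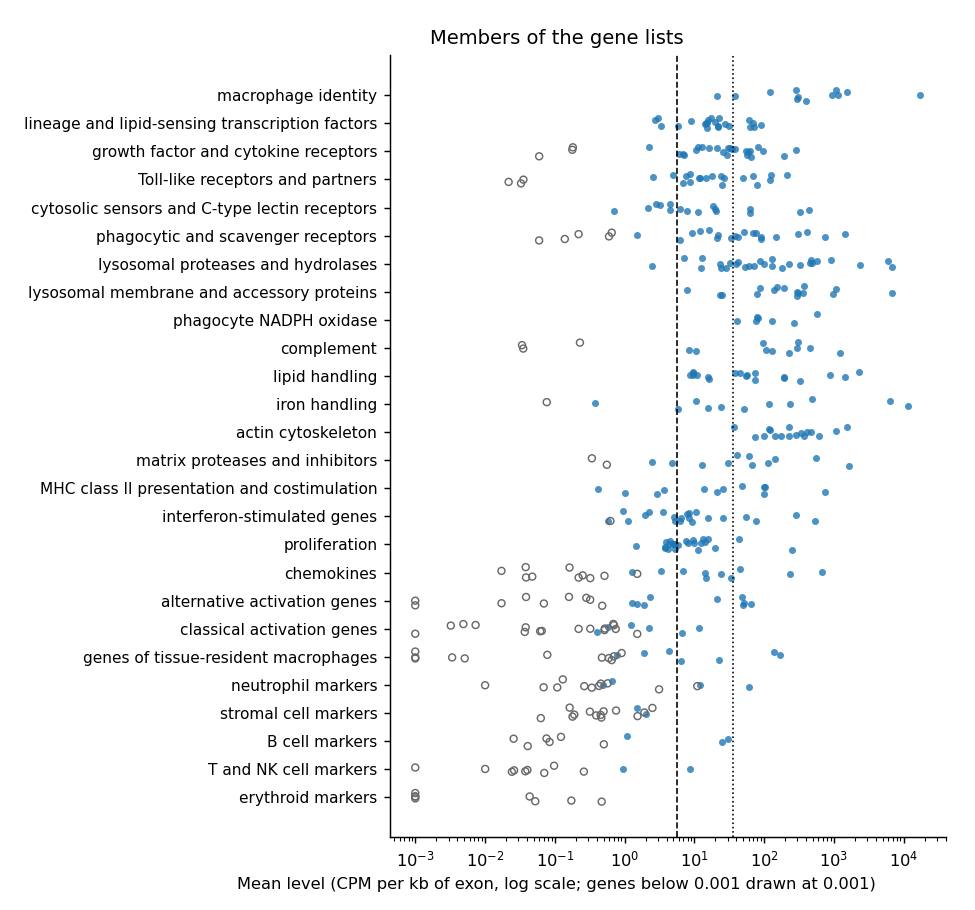
Mean level of each member of 26 gene lists in CPM per kb of exon, on a log scale, over 5 libraries. Filled points are expressed genes and open points are genes below 1 CPM in at least 1 library. The dashed line is the median of expressed genes (5.64) and the dotted line the start of the top 10% (36.4). Lysosomal, oxidase and actin genes lie mostly to the right of the dotted line, and activation genes and markers of other cells mostly to the left of the dashed one.

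Receptors for growth factors and cytokines were broadly present. Of these, 24 of 27 were expressed and 10 were in the top 10%. Csf1r led at 291 CPM per kb and Tnfrsf1b, the second TNF receptor, followed at 194. The GM-CSF receptor chains were also high, with Csf2ra at 81.5 CPM per kb. Its partner Csf2rb is 95.1% identical to Csf2rb2, so the levels of these 2 cannot be fully separated. Receptors of progenitors were not expressed, with Kit at 0.756, 2.30, 1.88, 1.10 and 1.92 CPM and Flt3 below 1 CPM throughout. The interleukin-1 receptor Il1r1 was also not expressed, at 2.41, 0.266, 0.485, 2.14 and 0.479 CPM, and controls 1 and 4 were its highest libraries. Il6st, the shared signal chain of the interleukin-6 family, was among the steadiest receptors, at 178, 189, 181, 176 and 188 CPM.

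Innate sensors were present before any stimulus. Of the Toll-like receptors and their partners, 19 of 22 were expressed, and Tlr5, Tlr11 and Tlr12, which sense flagellin or profilin, were the exceptions at means of 0.104, 0.107 and 0.113 CPM. The endosomal receptor Tlr13, a sensor of bacterial ribosomal RNA, was the highest receptor of the family at 125 CPM per kb. Its level was 608, 584, 472, 488 and 538 CPM. Tlr8 and Tlr7 followed with 68.5 and 50.1 CPM per kb, while Tlr4, the receptor for endotoxin, had 18.1 and Tlr3 2.55. Unc93b1, which escorts the endosomal receptors, had 211 and the endotoxin co-receptor Cd14 121 CPM per kb. Tlr2, the receptor for lipoproteins, was at 36.0, 35.1, 35.7, 34.9 and 35.9 CPM. Its SD was 1.42% of its mean, below the median of 3.99% that counting alone gives at 20 to 50 CPM. Evenness of this degree is not resolved at these depths.

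All 16 cytosolic sensors and C-type lectin receptors were expressed. Clec7a, the dectin-1 receptor for fungal glucans, led at 441 CPM per kb, before Clec4d at 329. The inflammasome sensor Nlrp3 was near the middle of the transcriptome at 26.8, 33.5, 32.9, 26.7 and 38.4 CPM. Its effector protease Casp1 was at 93.1, 113, 87.1, 69.3 and 108 CPM, lowest in control 4. Clec4n, which encodes dectin-2, was uneven at 56.4, 14.0, 12.9, 34.7 and 13.8 CPM. Controls 1 and 4 were its 2 highest libraries, and the other 3 lay between 12.9 and 14.0 CPM.

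Phagocytic and scavenger receptors were expressed in 20 of 25 cases, 12 of them in the top 10%. Cd36, a receptor for oxidised lipid and dying cells, led in CPM per kb with 1433. It stood at 6718, 4333, 4027, 5766 and 4882 CPM, highest in controls 1 and 4. Itgb2, the shared beta chain of leukocyte integrins, had 753 CPM per kb, the Fc receptor Fcgr3 408 and Itgam 309. Trem2, a lipid receptor that signals through Tyrobp, was at 651, 745, 798, 734 and 751 CPM. The scavenger receptors Marco and Cd163 were not expressed, at means of 1.15 and 1.20 CPM, nor were Olr1, Tyro3 and Timd4. Within the TAM family of receptors for dying cells, Axl at 136, 176, 206, 148 and 172 CPM and Mertk at 115, 73.6, 83.0, 97.3 and 87.4 CPM were expressed. Axl was lowest in controls 1 and 4, and Mertk was highest in them.

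Lysosomal genes were among the highest of all lists. All 28 proteases and hydrolases were expressed and together took 5.55% of the counts. Of these, 20 were in the top 10% by CPM per kb. Another 13 of 16 lysosomal membrane and accessory genes were there too. Ctsd, an aspartic protease, was at 16998, 14297, 16918, 17929.7 and 15518 CPM. Ctsb, a cysteine protease, was at 14308, 14005, 15393, 14077 and 14359 CPM, its 5 libraries lying within 1.10-fold. Ctsl, another cysteine protease, was at 3869, 3100.5, 2772, 2788 and 3050.2 CPM, highest in control 1. Lamp1, the main glycoprotein of the lysosomal membrane, was at 2420.3, 2569.5, 2656, 2572 and 2633 CPM. The median CV was 7.50% for hydrolases and 6.61% for membrane genes, and 8.23% and 8.29% with library sizes scaled by TMM. All expressed genes of 100 to 1000 CPM had a median of 8.55%. Ctsk, a collagenase better known from osteoclasts, was the only hydrolase with a CV of at least 25%, at 158, 84.1, 90.3, 128 and 84.8 CPM, and was highest in controls 1 and 4.

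MiT/TFE factors are known to bind the letters CACGTG, an E box that reads the same on both strands, in promoters of lysosomal genes. Promoters from RefSeq (build GRCm38.p6) run from 250 bases before to 50 bases after a gene's start. The letters were present in 7 of 24 promoters of 22 matched hydrolase genes (29.2%) and in 3 of 17 promoters of 14 membrane genes (17.6%). They were present in 7.15% of all 32851 promoters and 10.3% of those of expressed genes. The 3 shown, with the E box in capitals, belong to genes of high level described above. The Ctsd promoter lies at chr7:142387778-142388077 on the minus strand with matches 245 and 98 bases before the start. The Ctsl promoter lies at chr13:64370471-64370770 on the minus strand, with 1 match 236 bases before it. The Lamp1 promoter lies at chr8:13158911-13159210 on the plus strand and holds 4 matches, 61, 45, 28 and 15 bases before the start. A match of letters is a description and not evidence of binding.
Ctsd: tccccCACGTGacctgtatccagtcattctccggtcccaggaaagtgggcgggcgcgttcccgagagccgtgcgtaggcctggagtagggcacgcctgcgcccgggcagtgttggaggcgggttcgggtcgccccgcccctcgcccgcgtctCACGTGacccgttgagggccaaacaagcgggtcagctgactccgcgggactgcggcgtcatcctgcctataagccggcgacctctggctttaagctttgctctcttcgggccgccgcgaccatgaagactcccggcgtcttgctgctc
Ctsl: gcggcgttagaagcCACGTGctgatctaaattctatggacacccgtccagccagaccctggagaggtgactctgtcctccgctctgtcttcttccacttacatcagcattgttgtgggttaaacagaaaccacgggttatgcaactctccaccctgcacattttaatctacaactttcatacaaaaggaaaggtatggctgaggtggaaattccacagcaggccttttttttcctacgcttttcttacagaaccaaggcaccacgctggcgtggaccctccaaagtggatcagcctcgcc
Lamp1: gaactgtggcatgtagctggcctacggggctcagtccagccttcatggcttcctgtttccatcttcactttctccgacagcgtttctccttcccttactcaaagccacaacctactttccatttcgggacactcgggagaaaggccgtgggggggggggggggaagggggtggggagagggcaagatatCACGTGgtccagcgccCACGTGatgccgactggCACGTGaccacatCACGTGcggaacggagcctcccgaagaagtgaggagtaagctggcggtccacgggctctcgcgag

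Lipid handling genes were all expressed, 12 of 19 in the top 10%. Lpl, the secreted lipoprotein lipase, was high and even at 10052, 9841, 9122, 8447 and 8899 CPM. Apoe, the apolipoprotein that carries cholesterol out of the cell, was much less even at 3082, 4124, 5784, 7187 and 4576 CPM. Control 4 was highest and control 1 lowest for Apoe, so it did not follow the order of the stromal markers. Its neighbour in the same gene cluster, Apoc2, was at 29.3, 20.4, 15.4, 55.8 and 18.7 CPM, with control 4 again highest. Plin2, the coat of lipid droplets, was among the steadiest at 698, 641, 652, 687 and 676 CPM. Genes of sterol and fatty acid synthesis were lower per length, from 8.71 CPM per kb for Fasn to 15.6 for Srebf2, except Scd2 at 74.6.

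Iron storage genes stood far above uptake genes per length, as with Ftl1 at 11757 and the transferrin receptor Tfrc at 51.5 CPM per kb. Ftl1 was at 15523, 13384, 16632, 18210.3 and 15022 CPM. Slc11a1, which pumps iron out of the phagosome, was at 405, 410.4, 478, 456 and 438 CPM. Tfrc ranged 3.46-fold at 557, 161, 219, 318 and 337 CPM, with control 1 highest and control 2 lowest. Hmox1, which frees iron from haem, was at 1176, 611, 857, 1002 and 657 CPM, and Trf, encoding transferrin itself, was at 1045, 552, 678, 1044 and 631 CPM. For Hmox1 and Trf controls 1 and 4 were the 2 highest libraries. Hamp, the hormone hepcidin, was not expressed, with 3 libraries at 0.

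Effector machinery was also in place. All 7 genes of the phagocyte NADPH oxidase were in the top 10%, among them the catalytic chain Cybb at 1516, 1581, 1406, 1708 and 1485 CPM. Its small partner Cyba had the highest level of the oxidase genes, 582 CPM per kb. Ncf4, a cytosolic subunit, was the uneven member at 107, 208, 260.5, 119.8 and 141 CPM. Complement genes were split. The 3 chains of C1q were high, with C1qb at 1242, C1qc at 455 and C1qa at 294 CPM per kb, while C2, C4b and Cfb, which form the enzymes that cleave C3, were not expressed. The receptor C3ar1 was at 1007, 1016, 969.7, 884 and 1049 CPM and C5ar1 at 183, 274, 299.8, 299 and 300.0 CPM, with control 1 the low library for C5ar1. All 17 actin cytoskeleton genes were in the top 10%, with a median CV of 7.60%. Among these, the monomer-binding peptide Tmsb4x had 1553 and Actb 1071 CPM per kb.

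Genes of glycolysis and chaperones were also high. All 18 glycolysis and hypoxia genes were expressed and 10 were in the top 10%, led by Gapdh at 454 and Pkm at 418 CPM per kb. Ldha, which turns pyruvate into lactate, was the steadiest of them at 569.9, 572, 561, 578 and 541 CPM. The 15 heat shock proteins and chaperones of the endoplasmic reticulum were all expressed, and the constitutive Hspa8 led at 424 CPM per kb. The median CV was 9.32% for the glycolysis list, 12.5% for the chaperones and 12.4% for the immediate-early genes described next, beside 10.9% for all expressed genes. The stress-induced pair Hspa1a and Hspa1b, 99.2% identical to each other, stayed at 5.24 ± 1.63 CPM and 7.89 ± 1.61 CPM (SD, n = 5). Of 15 immediate-early genes, 13 were expressed and 4 were in the top 10%, and Atf3, a stress-induced repressor, was the highest at 589, 623, 576, 577 and 553 CPM. Fos was at 55.3, 54.3, 58.0, 65.7 and 66.5 CPM and Egr1 at 13.5, 13.7, 18.1, 15.7 and 14.8 CPM, while Fosb was below 1 CPM in every library.

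Inflammatory genes were quiet. Of 22 classical activation genes only 6 were expressed, beside 48.0% of all protein-coding genes, and none reached the top 10%. Together the 22 summed to 47.9, 49.4, 45.1, 44.0 and 51.9 CPM. Tnf was the highest, at 13.4, 22.2, 20.7, 13.8 and 26.2 CPM, lowest in controls 1 and 4. Il1b was at 2.36, 0.930, 0.732, 1.95 and 1.16 CPM and Il1a at 7.98, 2.30, 2.91, 5.96 and 3.01 CPM, both highest in control 1. Il6, Il12b and Nos2, the inducible nitric oxide synthase, had means of 0.0902, 0.122 and 0.287 CPM, and Csf3 was at 0 throughout. Il12a, Il23a and Ifnb1 had a count in control 4 only, the deepest library.

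Genes of alternative activation by interleukin-4 were expressed in 9 of 18 cases, near the 48.0% of all protein-coding genes. Retnla and Chil4 were at 0 in all 5 libraries and Arg1 was at 3.13, 0.133, 0.243, 1.21 and 0.616 CPM, highest in control 1. Mrc1, the mannose receptor, was high at 411, 282, 299.7, 313 and 329 CPM, as was the transcription factor Egr2 at 160.1, 149, 166, 186 and 169 CPM. The listed genes Fn1, which encodes the matrix protein fibronectin, and F13a1, a clotting factor subunit, were expressed but are also made by other cells of marrow. Fn1 was at 383, 91.5, 99.1, 559 and 109 CPM and F13a1 at 25.7, 6.11, 6.21, 11.1 and 2.53 CPM, both highest in controls 1 and 4.

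Chemokines were carried by a few genes. Of 20, 10 were expressed, near the 48.0% of all protein-coding genes. Ccl6 with 671 and Ccl9 with 237 CPM per kb stood far above Ccl3 with 44.9. Ccl6 was at 1253, 979.9, 1137, 1792 and 865 CPM, with control 4 highest, and Ccl9 was even at 617, 755, 773, 783 and 678 CPM. Ccl2, the attractant of monocytes, was at 11.6, 18.0, 19.4, 11.4 and 19.7 CPM. Cxcl1, Cxcl9 and Cxcl10 were not expressed, at means of 0.412, 0.115 and 0.727 CPM. The secreted proteases were led by Mmp12 with 1639 CPM per kb, followed by the inhibitor Cst3 with 555. Eicosanoid synthesis genes were led by Pla2g7 with 251 and Alox5ap with 157 CPM per kb, while Ptgs2, the inducible cyclooxygenase, was at 3.17, 1.28, 1.15, 1.78 and 1.92 CPM.

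Most listed markers of other lineages were not expressed, but some of those expressed stood high per length. No marker of the erythroid, megakaryocyte, mast cell and basophil, or adipocyte lists was expressed. The lymphocyte lists gave 2 of 11 markers of T and NK cells and 3 of 9 of B cells, beside 48.0% of all protein-coding genes. Cd4, which macrophages can also express, accounted for most of the former at 37.2, 27.3, 38.4, 26.8 and 43.4 CPM, and Cd3d, Cd3e and Cd3g of the T cell receptor complex stayed below 1 CPM. Ighm, the IgM heavy chain, was at 32.3, 73.9, 76.9, 60.9 and 39.0 CPM, although Pax5 of B cells stayed below 1 CPM in every library. The 3 expressed B cell markers had a median percentile of 85.2 by CPM per kb. Of the dendritic cell markers only the integrin Itgax was expressed, at 681, 608, 645, 672 and 567 CPM. Itgax stood at percentile 97.2 by CPM per kb, while Flt3, Zbtb46 and Xcr1 stayed below 1 CPM. Siglecf and Ccr3 were the 2 of 6 eosinophil markers expressed, at 18.0 ± 3.70 CPM and 12.1 ± 4.04 CPM (SD, n = 5). Of 7 endothelial markers, Vwf at 65.4, 109, 118, 90.5 and 118 CPM and Kdr at 11.0 ± 2.67 CPM (SD, n = 5) were expressed and Cdh5, Tek, Emcn, Esam and Cldn5 were below 1 CPM.

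The spread between the 5 mice was small for most genes. The median CV was 10.9% (quartiles 7.43 and 16.0%). Genes with a CV of at least 25% numbered 891, which is 8.11% of expressed genes, and 92 genes had a CV of at least 50%. The spread depended on the level. Genes of 1 to 2 CPM had a median CV of 22.0%, close to the 17.2% that counting alone gives at these depths. Genes of 100 to 1000 CPM had a median of 8.55% beside 1.72% from counting alone. A single library stood apart from the other 4 (Dixon ratio over 0.71, a gap of that share of the whole range) in 379 genes, which is 3.45% of those expressed, where chance flags about 5%. Control 1 was that library for 109 and control 5 for 105 of them.

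**Figure D3:**
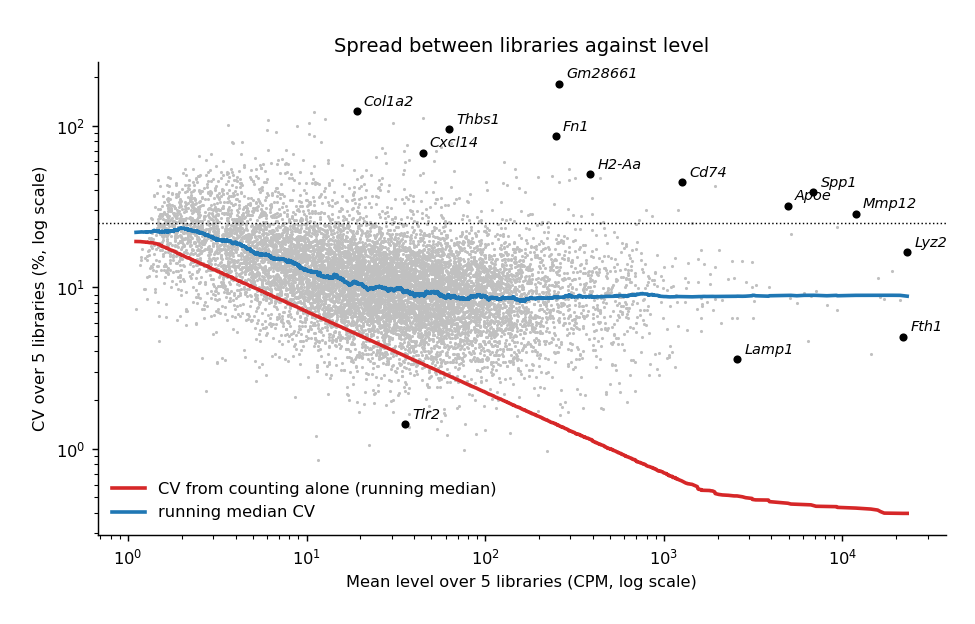
CV over the 5 control libraries in percent against mean level in CPM, both on log scales, for each expressed gene (grey), with the running median (blue), the CV from counting alone (red), the 25% limit (dotted) and named genes (black). The median settles near 8.55% above 100 CPM, while Fn1, Cd74, Spp1 and Mmp12 lie far above it and Tlr2 below the counting line.

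The 20 steadiest genes were the low end of 7950 candidates, protein-coding genes expressed at a mean of 10 CPM or more without predicted names. Their CV ran from 0.854% to 1.69% and their means from 11.4 to 263 CPM. In 19 of them the CV was below the counting CV, so evenness of this degree is not resolved at these depths. Usp42, a deubiquitinase, was at 11.7, 11.7, 11.5, 11.6 and 11.5 CPM. Plekhb2, a protein of recycling endosomes, was at 223, 219, 220.1, 218 and 223 CPM and Tox4, a chromatin protein, at 76.1, 76.0, 75.4, 76.3 and 74.4 CPM. Mtf1, the metal-sensing transcription factor, Tollip, an adaptor of Toll-like receptor signalling, and Clcn3, a chloride transporter of endosomes, were also among the 20.

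The 20 most variable genes were taken from protein-coding genes that had 1 CPM in all 5 libraries and averaged 10 CPM or more. Their CV ran from 56.6% to 122%, and in 15 of them controls 1 and 4 were the 2 highest libraries. This order held in 7.77% of all expressed genes and in 24.1% of those with a CV of at least 25%. Col1a1, which fell below 1 CPM in controls 3 and 5, is not among the 20. Its partner chain Col1a2 was at 41.6, 2.79, 1.46, 47.3 and 1.98 CPM, and Bgn, a matrix proteoglycan, was at 29.8, 3.68, 1.82, 25.3 and 2.39 CPM. Thbs1, an adhesive matrix glycoprotein, was at 134, 18.7, 22.4, 119.9 and 17.1 CPM. For these 3 genes the lower of controls 1 and 4 was several times the highest of the other 3. Lilra6, an immunoglobulin-like receptor 95.3% identical to its neighbour Pirb over part of its length, was at 31.3, 1.89, 1.48, 17.5 and 2.49 CPM. Vsig8, at 93.0, 22.7, 36.6, 139 and 30.4 CPM, and Epas1, which encodes the hypoxia factor HIF-2 alpha, at 39.6, 10.5, 14.9, 43.6 and 14.3 CPM, had the same order.

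In 4 of the 20 most variable genes the order ran the other way, with controls 1 and 4 lowest. That order held in 28.1% of all expressed genes and in 34.2% of those with a CV of at least 25%. Cxcl14, a chemokine, was at 10.0, 69.2, 74.2, 14.8 and 54.5 CPM. Gdf3, a ligand of the TGF-beta family, was at 16.3, 80.0, 38.1, 9.77 and 38.0 CPM. Pdgfb, a growth factor for mesenchymal cells, was at 25.9, 63.4, 100.0, 29.0 and 38.7 CPM, and the adrenergic receptor Adra1a was at 5.20, 13.3, 13.8, 4.07 and 18.8 CPM. Where controls 1 and 4 are the 2 extreme libraries of a gene, its CV without them is lower by construction, so values given below without these libraries only describe the other 3.

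**Figure D4:**
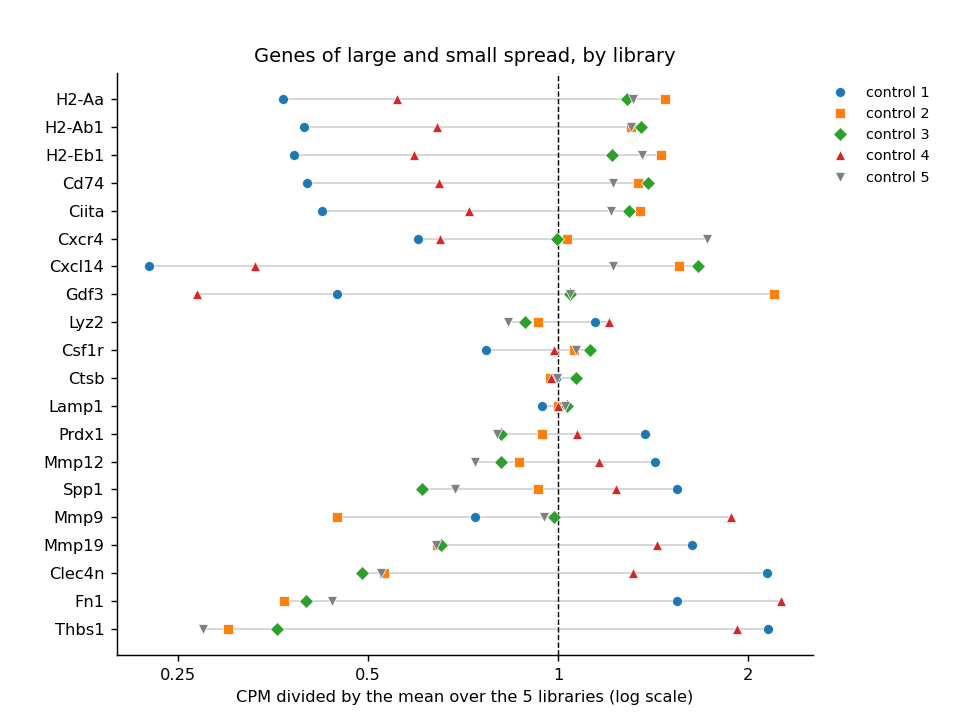
Level of 20 genes in each control library divided by the gene's mean over the 5 libraries, on a log scale. Controls 1 (circle) and 4 (triangle) lie at the left for the MHC class II genes at the top and at the right for Mmp12, Spp1, Fn1 and Thbs1 at the bottom, while Ctsb and Lamp1 barely spread.

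Many genes shared an order of the libraries, and the direction depended on the scaling. By column total, controls 1 and 4 were the 2 lowest libraries in 28.1% of expressed genes and the 2 highest in 7.77%. Other pairs had shares of this size, with controls 2 and 5 highest in 24.2%, controls 3 and 5 highest in 19.6% and controls 3 and 4 lowest in 20.5%. With TMM-scaled library sizes controls 1 and 4 were lowest in 15.2% and highest in 14.8%. Among the 891 genes with a CV of at least 25%, controls 1 and 4 were lowest in 305 and highest in 215. With TMM scaling the balance turned, to 207 lowest and 288 highest of 854 such genes. By column total no other pair of libraries was lowest in more than 12.5% or highest in more than 19.4% of the 891. Genes below were therefore read with both scalings, and with and without controls 1 and 4.

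MHC class II genes differed widely between these mice. The 12 genes of the list, which holds genes of costimulation as well, summed to 1077, 3238, 3198, 1586 and 3011 CPM in controls 1 to 5. The CV of this sum, 41.9%, was larger than that of any other list with at least 5 expressed genes. Among lists with fewer, the sum of the stromal markers (2 expressed) had a CV of 117%. That of the neutrophil markers (4 expressed) had 51.2%, and both sums were highest in controls 1 and 4. Cd74, the invariant chain that guards the peptide groove, was at 505, 1686, 1749, 815 and 1541 CPM. H2-Aa and H2-Ab1, the 2 chains of I-A, were at 142, 571, 496, 215 and 508 CPM and 103, 337, 349, 166 and 338 CPM. H2-Eb1, the beta chain of I-E, was at 75.2, 286, 239.7, 117 and 267 CPM. Ciita, the coactivator that switches these genes on, was at 14.8, 47.2, 45.3, 25.3 and 42.5 CPM. In each of these 5 genes control 1 was lowest, control 4 next, and the other 3 libraries lay close together above both. H2-DMa and H2-DMb1, which load peptides, kept this order with smaller ranges of 1.93-fold and 1.60-fold. The costimulatory ligands Cd80 at 14.6, 11.8, 7.52, 11.2 and 9.58 CPM and Cd86 at 4.06, 2.71, 3.34, 4.57 and 3.90 CPM did not follow it. By either scaling controls 1 and 4 were the 2 lowest in 9 of 12 genes. The shares over all expressed genes were 28.1% by column total and 15.2% with TMM scaling. Of the 12, 6 had a CV of at least 25%, and 0 had one without controls 1 and 4, where the median CV of the list was 7.57% instead of 28.6%. Over all expressed genes the same step moved the median from 10.9% to 8.79%. It moved the share of expressed genes with a CV of at least 25% from 8.11% to 5.02%.

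Promoters of class II genes carry a Y box, whose letters CTGATTGG hold the CCAAT element on the other strand and are recognised by the factor NF-Y. Both strands of the RefSeq promoters were searched for these letters. They were present in 2 of 8 promoters of the 7 genes of the list that could be matched. These genes include Cd274, Cd80 and Icosl, which are not class II genes and lacked the letters. H2-DMa and H2-DMb1 lacked them too. The letters were present in 4.10% of all promoters and in 5.83% of those of expressed genes. The promoters of H2-Aa and H2-Eb1 are shown, with the Y box in capitals, because their genes had the widest ranges of the list. The H2-Aa promoter lies at chr17:34287774-34288073 on the minus strand with the match 51 bases before the start, and the H2-Eb1 promoter at chr17:34305617-34305916 on the plus strand with the match 62 bases before it (GRCm38.p6).
H2-Aa: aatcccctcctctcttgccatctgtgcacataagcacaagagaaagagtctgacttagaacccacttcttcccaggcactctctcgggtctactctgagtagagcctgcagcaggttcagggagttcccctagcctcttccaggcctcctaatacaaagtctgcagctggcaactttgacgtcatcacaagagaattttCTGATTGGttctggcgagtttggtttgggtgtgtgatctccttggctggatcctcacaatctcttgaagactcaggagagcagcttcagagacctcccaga
H2-Eb1: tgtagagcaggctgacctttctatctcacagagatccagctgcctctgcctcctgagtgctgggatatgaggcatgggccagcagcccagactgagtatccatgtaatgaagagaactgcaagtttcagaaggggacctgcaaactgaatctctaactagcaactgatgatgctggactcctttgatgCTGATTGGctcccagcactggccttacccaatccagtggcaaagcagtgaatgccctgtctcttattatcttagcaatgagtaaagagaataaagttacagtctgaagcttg

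Class I presentation had the same order with a smaller range. All 9 genes were expressed, 8 of them lowest in controls 1 and 4 (7 with TMM scaling), beside 28.1% of all expressed genes (15.2%). The 9 genes summed to 5416, 6991, 7023, 5908 and 7218 CPM. The heavy chain H2-K1 was at 504, 748, 816, 642 and 828 CPM, and Tap1, a subunit of the pump that carries peptides to class I, was at 24.6, 39.1, 43.7, 28.7 and 42.8 CPM. H2-K1 and H2-D1 are about 91% identical over long stretches, so their split is uncertain.

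Interferon-stimulated genes shared this order. Of 22, 21 were expressed, 18 of them with controls 1 and 4 lowest (15 with TMM scaling) and none with both highest. Over all expressed genes the shares were 28.1% lowest and 7.77% highest (15.2% and 14.8% with TMM scaling). Irf7, the factor that amplifies interferon responses, was at 8.55, 23.0, 29.9, 14.3 and 24.4 CPM. Ifit2 and Ifit3, antiviral RNA-binding proteins, were at 13.5, 30.4, 38.6, 15.5 and 29.5 CPM and 8.24, 17.6, 25.5, 10.0 and 19.4 CPM. For these 3 genes control 1 was lowest and control 3 highest. Ifitm3, a membrane protein that blocks viral entry, had the highest level per length of the list with 541 CPM per kb. It stood at 271, 393, 392, 389.7 and 390.2 CPM, with control 1 alone apart. The median CV of the list was 23.5%, and 14.3% without controls 1 and 4.

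Genes of dividing cells were expressed at moderate levels at day 7. All 24 on the list were expressed, and 2 reached the top 10%. Mki67, a protein of cycling nuclei, was at 117, 148, 117, 101 and 154 CPM. Top2a, the topoisomerase of mitosis, was at 89.9, 120.2, 96.3, 78.4 and 132 CPM. Ccnd1, a cyclin of early G1 that growth factors induce, was at 59.7, 97.3, 122, 72.2 and 119.8 CPM. Controls 2 and 5 were highest for Mki67 and Top2a and controls 3 and 5 for Ccnd1. Controls 1 and 4 were the 2 lowest in 18 of 24 genes, 15 with TMM scaling. That order held in 28.1% of all expressed genes, and in 15.2% with TMM scaling.

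**Figure D5:**
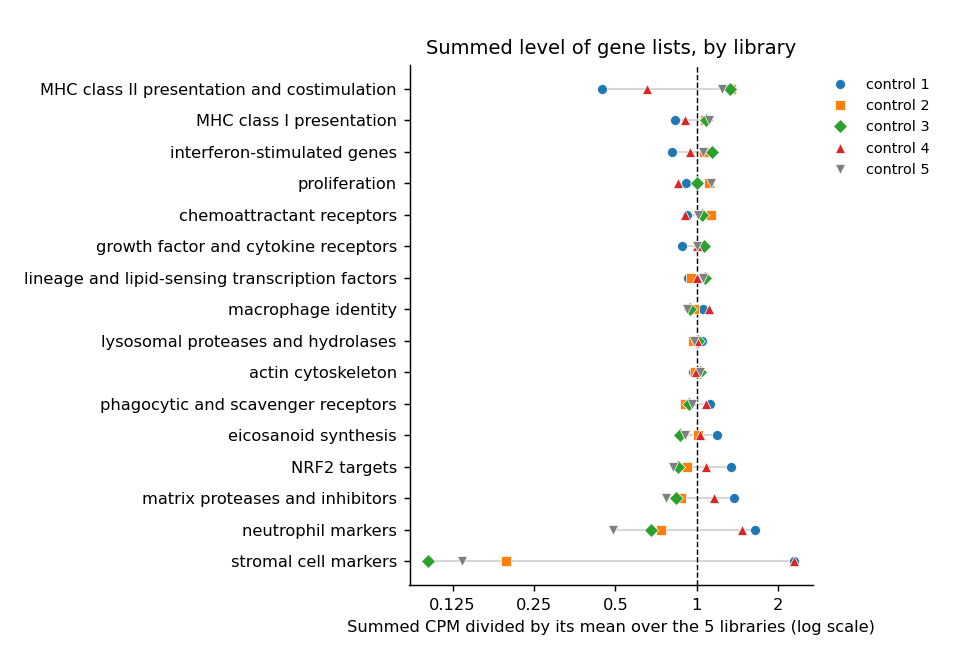
Summed CPM of 16 gene lists in each control library divided by its mean over the 5 libraries, on a log scale. Controls 1 and 4 lie at the left for MHC class II presentation and costimulation. They lie at the right for NRF2 targets, matrix proteases, neutrophil and stromal markers, while lysosomal hydrolases and actin genes stay close to 1.

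Lists that were highest in controls 1 and 4 included targets of NRF2, the factor that answers oxidative stress. All 13 were expressed, and 11 were highest in these 2 libraries (12 with TMM scaling). That order held in 7.77% of all expressed genes, and in 14.8% with TMM scaling. Prdx1, a peroxidase, was at 12872, 8836, 7610.2, 10017 and 7482 CPM. Gclm, a subunit of the enzyme that makes glutathione, was at 219.9, 144, 151, 187 and 147 CPM. The thioredoxin Txn1 was at 359, 272, 243, 336 and 226 CPM. All 3 had control 1 highest and control 4 next. The median CV of the list was 16.7%, and 6.46% without controls 1 and 4.

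Matrix proteases and their inhibitors had the same direction and a larger range. Of 11 expressed, 6 were highest in controls 1 and 4, and 7 with TMM scaling. That order held in 7.77% of all expressed genes, and in 14.8% with TMM scaling. A CV of at least 25% was found in 8 of the 11, and in 1 without controls 1 and 4. Over all expressed genes the share with such a CV was 8.11%, and 5.02% without controls 1 and 4. Mmp19 was at 386, 153, 155, 339.9 and 152 CPM and Mmp8 at 245, 118, 104, 204 and 77.0 CPM. Mmp9, a gelatinase, was at 108, 65.5, 145, 276 and 139 CPM, with control 4 highest but control 1 below controls 3 and 5. Plau, the urokinase-type activator of plasminogen, went the other way at 310.2, 363, 359.7, 281 and 387 CPM. Spp1, which binds integrins and is secreted by macrophages, was at 10581, 6392, 4190.2, 8479 and 4721 CPM. Its CV was 38.8%, and 22.5% without controls 1 and 4.

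Receptors for chemoattractants were divided. Of 12 expressed, 9 had a CV of at least 25%, beside 8.11% of all expressed genes. Of these 9, 4 were lowest and 4 highest in controls 1 and 4 (3 and 4 with TMM scaling). Among all expressed genes with such a CV the shares were 34.2% and 24.1% (24.2% and 33.7% with TMM scaling). Ccr1, a receptor for Ccl3 and Ccl5, was at 220.2, 100.3, 98.7, 161 and 85.0 CPM, highest in controls 1 and 4. Cxcr4, the receptor for the stromal chemokine Cxcl12, was at 60.5, 104, 100.4, 65.6 and 174 CPM, with control 5 highest. C3ar1 varied least on this list, with a CV of 6.42%.

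Genes of cell fusion and bone resorption, which marrow macrophages can induce, were also split. Of 10 osteoclast genes 8 were expressed. By column total controls 1 and 4 were the 2 lowest libraries in 4 of the 8 and the 2 highest in 2. With TMM scaling they were lowest in 2 and highest in 4, so the balance depended on the scaling. Over all expressed genes the shares were 28.1% and 7.77% by column total, and 15.2% and 14.8% with TMM scaling. Acp5, the tartrate-resistant phosphatase, was at 101, 42.1, 54.7, 106 and 29.7 CPM, highest in controls 1 and 4. Dcstamp, which is needed for cells to fuse, was at 33.3, 91.6, 77.5, 38.2 and 81.3 CPM, lowest in those libraries. Calcr, the calcitonin receptor of mature osteoclasts, was at 0 in all 5, and Oscar had at most 0.0472 CPM.

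The letters TATAAA, the core of the TATA box that binds the general factor TBP, were present on either strand in 11.7% of 760 RefSeq promoters of genes with a CV of at least 25%. The share was 5.57% of 988 promoters of genes with a CV of at most 5%, and 6.90% over all expressed genes. It was 9.71% in the top 10% by CPM per kb and 13.6% over all 32851 promoters. Of the 891 genes with a CV of at least 25%, 282 averaged 10 CPM or more, and the groups were not matched for level. These shares are descriptions of the promoters searched and were not tested.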

How the data were processed

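Per the labels, poly(A)+ RNA of 5 control cultures gave strand-specific libraries, read from both ends at 100 bp. The authors deposited estimated counts per Ensembl gene, not all whole. The tools were DESeq2 1.34.0, Salmon 1.6.0 and MultiQC, per the submitters' processing notes, which also list mm10 and GRCm39 as builds. The annotation, the Salmon settings and any use of strand are not stated there. The authors' second table, of log2 values, was not used.

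Counts were divided by each column total to give CPM, and by exon length (GENCODE M21, matched for 10972 of 10985 expressed genes) to give CPM per kb. Mean, SD and CV were taken over 5 libraries in Python 3.11.15 (pandas 2.3.3), TMM and RLE factors and dispersion (biological CV 13.5%) in edgeR 4.0.16 under R 4.3.3, after rounding counts. The spread calculation was first tested on simulated data. Near copies were found with blastn 2.17.0. Levels of overlapping and antisense gene pairs are uncertain, since the use of strand is not stated.

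Named genes are members of 40 lists, the 25 highest by CPM or CPM per kb, and the 20 most and 20 least variable expressed protein-coding genes of at least 10 CPM without predicted names. Xist, the Y-linked genes, Lyz1, Ftl1-ps1, Gm10925 and Gm28661 were chosen after their values were seen. Members and lists were chosen with earlier results of these data known. Some genes that meet these rules are not reported here. Replicates are labelled as separate mice. Results were recomputed under other scalings, expression limits, lengths, spread measures and without each library or controls 1 and 4.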

Additional observations from a re-analysis of the deposited data

Results flagged for a closer look

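In each of the following a single control library stood apart from the other 4, with a gap to its nearest neighbour above 0.71 of the whole range of the 5 values. Of 222 named genes 18 met this limit, as did 2 of 42 summed lists and none of 8 library measures. Chance flags about 1 in 20. No explanation was tested.

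Control 1 was apart for several genes of macrophage function. Ifitm3 was at 271 CPM there and at 389.7 CPM or more in the others, and C5ar1 was at 183 CPM, the next library being at 274. The osteoclast genes summed to 1598 CPM in control 1 and to at most 1354 elsewhere. Mast cell and basophil markers summed to 2.98 CPM in control 1, lower than the 5.40 of the next library. Near the detection limit, control 1 was highest for Cxcl1 (1.04 CPM) and Nos2 (0.992 CPM) and lowest for Cxcl9 (0.0467 CPM).

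Among well expressed genes, Ctsb was highest in control 3 at 15393 CPM, above 14359 in the next library, a small relative gap in an even gene. Hspa1a, which shares most of its sequence with Hspa1b, was highest in control 4 at 8.07 CPM. The nuclear copies of mitochondrial genes were each carried by 1 library, Gm10925 by control 2 at 1629 CPM and Gm28661 by control 5 at 1101 CPM.

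The other cases rest on a few counts. In control 4, the deepest library, Il6 was at 0.275, Gata6 at 0.110, Il23a at 0.0550, and Il12a and Ifnb1 at 0.0275 CPM each. In control 5, the shallowest, Cd3g was at 0.342 and Cd3e at 0.205 CPM. In control 1, Ly6g was at 0.0472 CPM, and in control 2 Tek was at 0.0443 CPM.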

How the results depend on the processing

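The number of expressed genes (10985) stayed between 9158 and 11657 over all alternatives run, within 1.5 times. The median CV of 10.9% became 10.3% with TMM and 10.3% with RLE factors, 8.87% without controls 1 and 4, 11.4% at 0.5 CPM, 9.94% at 5 CPM, 13.5% for genes with 1 count in each library and 10.3% from the SD of log2(CPM + 1). Leaving out 1 library at a time gave 10.1 to 11.0%, lowest without control 1. Genes with a CV of at least 25% (891) numbered 1665 at a limit of 20%, 212 at 40% and 282 among genes of at least 10 CPM, limits chosen after seeing the data. The count was 838 to 1042 without 1 library and 608 without controls 1 and 4, where the expression limit was applied to the 3 libraries left. The top 100 genes took 34.2% of counts without mitochondrial genes. Of the 100 top genes by CPM per kb, 79 stayed with the mean transcript length and 91 with the longest transcript. Of the 20 most variable genes, 13 to 18 stayed without 1 library, fewest without control 1, and 3 without controls 1 and 4. The cause was not tested. Mean CPM of the named genes and summed CPM of the lists moved by less than 1 SD with TMM factors. These factors lay between 0.960 and 1.05, which leaves such means little room to move. Without a library such means cannot move by more than 1 SD. None of these settings therefore says anything about the stability of the means. The median CV of 31 of 36 lists moved without controls 1 and 4 by more than its SD over the settings that leave out 1 library. Those settings share most of their libraries, so this SD is a narrow measure. By it 14 of 36 medians also moved with TMM factors, and 66 of 180 without a single library. No paired analysis was possible because the values come from 1 group, with no second group to pair. Depth limits genes near 1 CPM, where 14.6 to 36.4 counts lie behind a value.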
